A study of Mus musculus with 4 samples.

Results

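Integrins are cell-surface receptors built from 1 alpha and 1 beta subunit, and laminins are the trimers of alpha, beta and gamma chains that form the backbone of basement membranes. Members of both families were taken from the array annotation by gene symbol alone, as probe sets that carry a single symbol of the Itga, Itgb, Lama, Lamb or Lamc series, with the brightest probe set by mean over the 4 arrays standing for each gene and dim genes kept. This gave 35 genes of the 22180 measured, 25 integrin subunits and 10 laminin chains. Itga10 had no such probe set and was not analysed here.

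The cells came from inguinal mammary glands of 4 week-old mice, congenic on FVB/NJ, with 1 Affymetrix array per sample. Of the samples, 2 came from mice with MMTV-Cre, a transgene in which the mouse mammary tumour virus promoter drives the Cre recombinase, and 2 from littermates without it. No floxed allele, treatment or pooling is named for either group, and neither the founder line of the transgene nor a measurement of Cre was used here. Per the labels, the tissue held no lymph node, was digested with collagenase, and was freed of stromal cells by centrifugation. The comparison asks what carrying the transgene changes in these cells. The numbered samples of a group are described as biological replicates, without saying whether each is 1 mouse.

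In the mammary gland, a layer of luminal cells lines the duct and a layer of basal myoepithelial cells sits on the basement membrane. Epithelial cells hold on to laminin mainly through receptors that pair Itga6 or Itga3 with Itgb1, and Itga6 with Itgb4 in hemidesmosomes. White blood cells use another set, built around Itgb2 and Itgb7, to stick to vessel walls and to other cells. Mammary epithelial cells that lose Itgb1 are known to organise poorly and to respond weakly to prolactin.

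All levels below are log2 values per probe set. Probe sets differ in how brightly they report a transcript, so levels are compared between arrays and not between genes. The median probe set of the array, at 2.84, serves as a mark of dimness, below which the size of a difference is uncertain. Of the 35 genes, 28 had a mean at or above it and 25 lay above it in every array. Over all 22180 genes these counts were 11668 and 10691. The 7 below it were Itgad, Itgae, Itgal, Itgax, Itga2b, Itga11 and Lamc3, and 3 of them, Itgad, Itgae and Itga2b, were below it in every array.

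The label of the samples was checked with marker genes. The 12 luminal markers averaged 7.01 and 6.96 in MMTV-Cre, against 6.89 and 6.91 in wild-type, with Krt18 between 9.99 and 10.18. Transcripts of other cells were present too. All 11 fibroblast markers and all 10 endothelial markers had means above the median probe set, beside 11668 of all 22180 genes. In a mixed preparation such as this, fewer cells of a type and less RNA per cell cannot be told apart. Wild-type replicate 1 stood apart through lymphocyte transcripts, and MMTV-Cre replicate 2 through fibroblast transcripts, and the integrin and laminin results that rest on either are given with and without it.

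The 9 epithelial and broadly expressed subunits were all above the mark of dimness in every array, and their median range over the 4 arrays was 0.215, beside 0.322 over all genes. Itgb1, the beta subunit shared by most receptors for matrix, had 8.54 and 8.66 in MMTV-Cre, against 8.45 and 8.51 in wild-type. Both MMTV-Cre arrays lay above both wild-type arrays, by a log2 difference of 0.12 whose 95% interval, -0.18 to 0.42, included 0. Its laminin-binding partner Itga6 read 7.93 and 8.01 in the MMTV-Cre arrays and 7.98 and 7.95 in the wild-type arrays. The arrays of Itga6 overlapped and spanned only 0.075 in all. Itgb4, the hemidesmosome subunit, had 5.53 and 5.64 in MMTV-Cre, against 5.48 in both wild-type arrays. The difference of Itgb4 was 0.11 (-0.19 to 0.40), and that of Itga3, the alpha subunit of another laminin receptor, was -0.03 (-0.40 to 0.34) with overlapping arrays.

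Itga2, the alpha subunit of a collagen receptor, was lower in MMTV-Cre by the largest amount in this set. It had 7.52 and 7.96 in MMTV-Cre, against 8.07 and 8.01 in wild-type. The groups did not overlap, but MMTV-Cre replicate 1 alone was far below the other arrays. The difference was -0.30 (-0.74 to 0.14), and without MMTV-Cre replicate 1 it was -0.08.

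Itgav joins several beta subunits to form receptors for vitronectin and for latent TGF-beta. It read 7.51 and 7.62 in the MMTV-Cre arrays and 7.55 and 7.63 in the wild-type arrays, with a difference of -0.02 (-0.32 to 0.29). A dimmer probe set of Itgav did not give the same picture, since it had 5.56 and 5.59 in MMTV-Cre, against 5.92 and 5.73 in wild-type, a difference of -0.25 with groups that did not overlap. Its partners Itgb5 and Itgb6 differed in opposite directions, both with intervals that included 0. Itgb5, a vitronectin receptor subunit, had 5.57 and 5.39 in MMTV-Cre, against 5.16 and 5.28 in wild-type, a difference of 0.26 (-0.07 to 0.59). Itgb6, an epithelial subunit that helps to activate TGF-beta, had 5.33 and 5.32 in MMTV-Cre, against 5.46 and 5.59 in wild-type, a difference of -0.19 (-0.49 to 0.11). For Itgb8, which also acts on latent TGF-beta, the arrays overlapped and the difference was 0.06 (-0.27 to 0.39). Over all 9 subunits the median difference was 0.01, beside -0.00 over all genes.

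**Figure D1:**
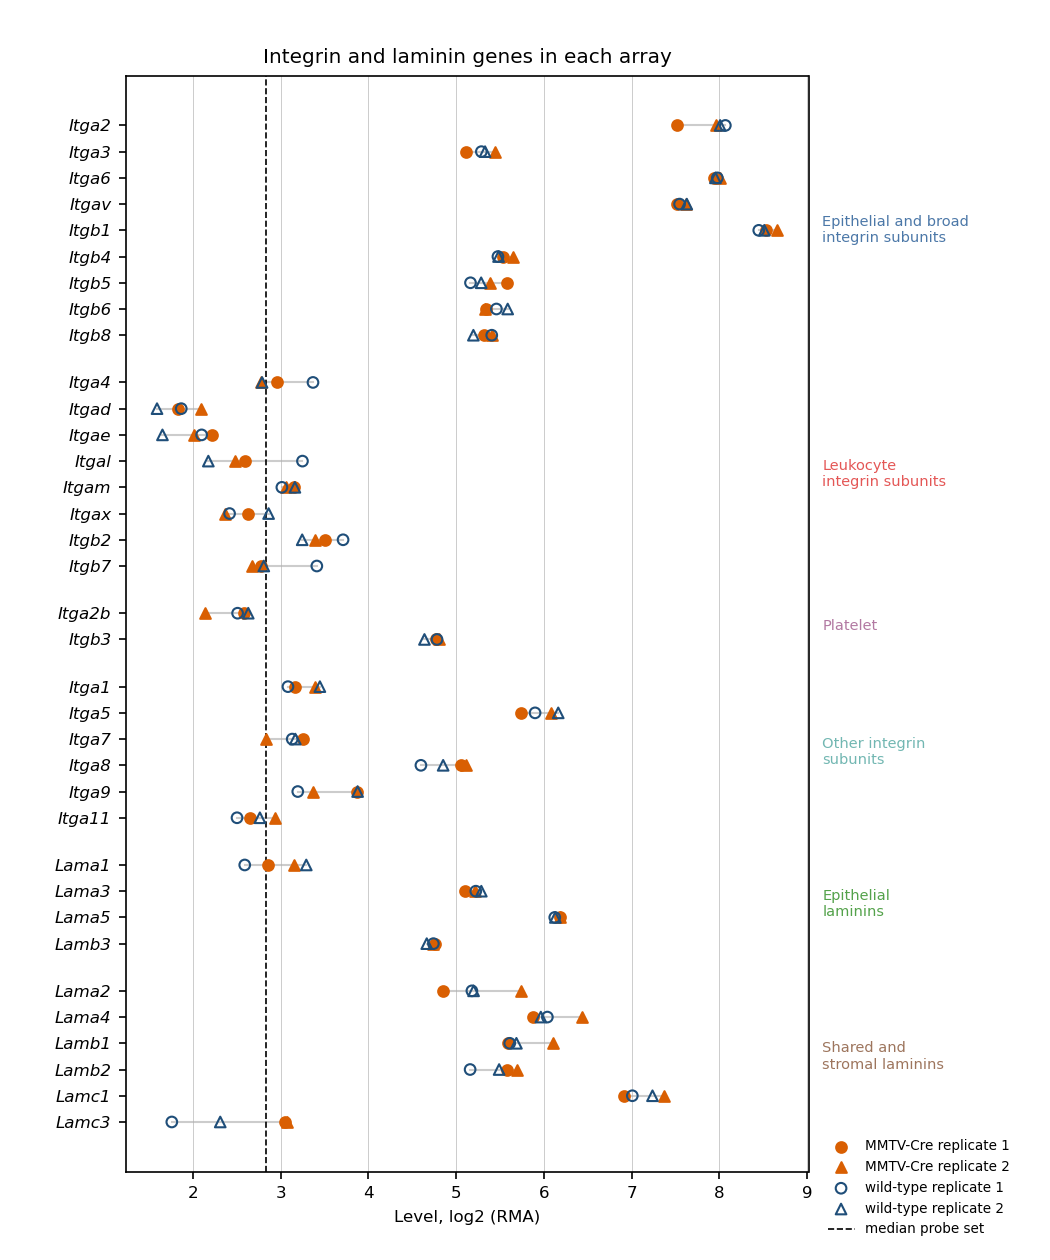
Level of each integrin and laminin gene on the log2 scale (x axis) in the 4 arrays, filled marks for MMTV-Cre and open marks for wild-type, with a grey line joining the lowest and highest array and a dashed line at the median probe set, 2.84. All 9 epithelial and broad integrin subunits lie to the right of the dashed line in every array, whereas most leukocyte subunits lie near or left of it, with wild-type replicate 1 (open circles) farthest right for Itga4, Itgal, Itgb2 and Itgb7.

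Of the 8 leukocyte subunits, 4 had a mean below the mark of dimness, beside 47.4% of all genes. In wild-type replicate 1, 4 of the 8 were highest, beside 23.4% of all genes. Only Itgam and Itgb2 lay above the median probe set in every array. Itgb2, the beta subunit of the leukocyte-restricted integrins, read 3.51 and 3.40 in the MMTV-Cre arrays and 3.71 and 3.25 in the wild-type arrays. Itgal, which pairs with Itgb2 in the lymphocyte receptor for intercellular adhesion molecules, read 2.59 and 2.48 in the MMTV-Cre arrays and 3.25 and 2.18 in the wild-type arrays. Both genes were highest in wild-type replicate 1 and lowest in wild-type replicate 2, so the MMTV-Cre arrays lay between the wild-type arrays. Itgb7, the beta subunit of gut-homing lymphocytes, had 2.77 and 2.68 in MMTV-Cre, against 3.41 and 2.81 in wild-type. Its partner Itga4 read 2.96 and 2.78 in the MMTV-Cre arrays and 3.37 and 2.79 in the wild-type arrays. Itgb7 was the only one of the 8 leukocyte subunits whose groups did not overlap, beside 16.6% of all genes higher and 16.3% lower. Its difference was -0.39 (-0.92 to 0.15). Mast cells also carry receptors with Itgb7. Of 12 neutrophil and mast cell markers, 4 had a difference above 0 and 8 below. The groups were separate in 2 upward and 5 downward, beside 16.6% and 16.3% of all genes. The mast cell proteases Mcpt4, Cpa3, Cma1 and Tpsb2 differed by -0.87, -0.73, -0.46 and -0.33. The mast cell receptor genes Kit and Fcer1a differed the other way, by 0.13 and 0.11. Tpsb2 and Fcer1a had means below the mark of dimness, and none of these genes passed the threshold. That list averaged 3.04 and 3.26 in MMTV-Cre, and 3.43 and 3.33 in wild-type, and its part in the level of Itgb7 was not tested.

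Subunits of myeloid and tissue-resident cells did not share that profile. Itgam, the alpha subunit of macrophages and neutrophils, lay between 3.01 and 3.16 in all arrays, and wild-type replicate 1 was the lowest. Itgax, used by dendritic cells and macrophages, read 2.63 and 2.37 in the MMTV-Cre arrays and 2.42 and 2.86 in the wild-type arrays. Itgad, a partner of Itgb2, and Itgae, which with Itgb7 binds E-cadherin on epithelia, lay between 1.59 and 2.22, below the mark of dimness throughout. Itgam, Itgax and Itgad are direct neighbours on mouse chromosome 7 in GRCm38.p6, with 0 other protein-coding genes between them, and none of the 3 was highest in wild-type replicate 1.

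Lymphocyte markers were highest in the same array as 4 of these genes. Wild-type replicate 1 was the highest array for 11 of the 12 T and NK cell markers measured and for all 7 B cell markers. Of these B cell markers, 4 lay below the mark of dimness in every array. The same array was highest for 3 of 12 macrophage and dendritic cell markers and 4 of 12 neutrophil and mast cell markers, beside 23.4% of all genes. The T and NK cell list lay at -0.54 and -0.42 around its mean over the arrays in MMTV-Cre, against 1.42 and -0.46 in wild-type. Lat, an adaptor of T cell receptor signalling, had 3.64 and 3.54 in MMTV-Cre, against 6.05 and 3.88 in wild-type. Wild-type replicate 1 exceeded the next array by 0.65 for Itgal, 0.60 for Itgb7, 0.41 for Itga4 and 0.21 for Itgb2. In all, that array was the highest for 5 of 35 integrin and laminin genes (14.3%), beside 23.4% of all genes, and 4 of these 5 were leukocyte subunits. The part of lymphocytes in these levels was not tested. The median difference of the 8 leukocyte subunits was -0.09 with all arrays and 0.14 without wild-type replicate 1, when Itgal differed by 0.36, Itgb2 by 0.20, Itga4 by 0.08 and Itgb7 by -0.08.

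Platelet subunits were measured in Itga2b and Itgb3, which together form the fibrinogen receptor. Itga2b, the platelet-restricted partner, read 2.58 and 2.13 in the MMTV-Cre arrays and 2.51 and 2.63 in the wild-type arrays, all dim. Itgb3, which also pairs with Itgav on other cells, lay between 4.64 and 4.80 in all arrays. Of the 6 platelet and megakaryocyte markers measured, 1 had a mean above the median probe set, beside 11668 of all 22180 genes.

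Among the 6 remaining alpha subunits, Itga8 was the only one whose groups did not overlap. Over all genes, 16.6% were separate with MMTV-Cre higher and 16.3% with MMTV-Cre lower. Itga8, a receptor subunit for fibronectin and nephronectin found on contractile and mesenchymal cells, had 5.05 and 5.11 in MMTV-Cre, against 4.60 and 4.85 in wild-type. Both MMTV-Cre arrays were above both wild-type arrays, with a difference of 0.36 (0.01 to 0.70). By limma this had an adjusted p = 0.963 and did not pass. Without 1 array the difference lay between 0.23, without wild-type replicate 1, and 0.48, without wild-type replicate 2, and its unadjusted p by limma was 0.224 and 0.0324 in these fits, 0.0935 without MMTV-Cre replicate 1 and 0.136 without MMTV-Cre replicate 2. Npnt, which encodes nephronectin, differed the other way, at 3.85 and 4.06 in MMTV-Cre, against 4.07 and 4.49 in wild-type. Of 9 basal epithelial markers, 4 had a difference above 0 and 5 below. In 2 of the 9 the groups were separate with MMTV-Cre higher, beside 16.6% of all genes, the contractile genes Acta2, with a difference of 0.40 (0.06 to 0.75), and Cnn1, with 0.31 (0.0049 to 0.62). Trp63, a basal transcription factor, differed by -0.24. The basal list as a whole averaged 5.94 and 5.99 in MMTV-Cre, and 5.94 and 5.92 in wild-type, and its part in the level of Itga8 was not tested. The fibronectin receptor subunit Itga5 differed by -0.12, the muscle laminin receptor subunit Itga7 by -0.10, the collagen receptor subunits Itga1 and Itga11 by 0.01 and 0.16, and Itga9, which binds tenascin-C, by 0.08. Each of these 5 had overlapping arrays. Itga9 was the most variable, at 3.87 and 3.36 in MMTV-Cre and 3.20 and 3.88 in wild-type.

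Of the 4 laminin chains typical of epithelial basement membrane, Lama3, Lama5 and Lamb3 varied little between arrays and Lama1 varied more. Lama5, the alpha chain of most mature epithelial and vascular laminins, had 6.18 and 6.19 in MMTV-Cre, against 6.12 and 6.13 in wild-type. Its groups did not overlap, but the difference was only 0.06 (-0.23 to 0.34) over a whole range of 0.062. Lama3 and Lamb3, chains of the laminin that anchors hemidesmosomes, differed by -0.10 (-0.40 to 0.20) and 0.04 (-0.25 to 0.33). Lama3 was lower in both MMTV-Cre arrays, at 5.10 and 5.21, against 5.22 and 5.29 in wild-type, and Lamb3 lay between 4.67 and 4.75 throughout. Lama1, best known from the embryo, read 2.86 and 3.15 in the MMTV-Cre arrays and 2.59 and 3.29 in the wild-type arrays, the higher value of both groups being in replicate 2.

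Laminin chains that are shared between tissues, or are typical of vessels, muscle and stroma, were all highest in the same array. MMTV-Cre replicate 2 was the top array for 6 of 6 of them, for 16 of all 35 integrin and laminin genes (45.7%) and for 26.1% of all genes. Lama2, the alpha chain of muscle and nerve, read 4.85 and 5.74 in the MMTV-Cre arrays and 5.18 and 5.20 in the wild-type arrays. Lama4, the alpha chain of vessel walls, read 5.88 and 6.44 in the MMTV-Cre arrays and 6.04 and 5.96 in the wild-type arrays. For both, the MMTV-Cre arrays held the lowest and the highest value of the study. Lamb1, a beta chain used in many laminins, read 5.60 and 6.10 in the MMTV-Cre arrays and 5.61 and 5.69 in the wild-type arrays. Lamc1, the gamma chain of nearly all laminins, read 6.91 and 7.37 in the MMTV-Cre arrays and 7.01 and 7.24 in the wild-type arrays. MMTV-Cre replicate 1 was again the lowest array and MMTV-Cre replicate 2 the highest for Lamb1 and Lamc1.

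Fibroblast markers had their lowest and highest mean in the same arrays as these 4 chains. Over 11 markers the mean level was 6.16 and 6.67 in MMTV-Cre, and 6.22 and 6.28 in wild-type, and MMTV-Cre replicate 2 was the highest array for 10 of them. Of the 11 differences, 10 were above 0, beside 10996 of all 22180 genes. For Col1a1, Col1a2, Col3a1 and Dpt both MMTV-Cre arrays lay above both wild-type arrays. The groups were thus separate in 4 upward and 0 downward, beside 16.6% and 16.3% of all genes. Endothelial markers averaged 4.92 and 5.31 in MMTV-Cre, and 4.91 and 5.32 in wild-type, high in replicate 2 of both groups. The part of stromal cells in the levels of the laminin chains and of Itga8 was not tested. With all arrays the differences were 0.10 for Lama2, 0.15 for Lama4, 0.20 for Lamb1 and 0.02 for Lamc1. Without MMTV-Cre replicate 2 they were -0.34, -0.12, -0.05 and -0.21, and without MMTV-Cre replicate 1 they were 0.55, 0.43, 0.45 and 0.24. The direction for these 4 chains thus depended on which MMTV-Cre array was kept.

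**Figure D2:**
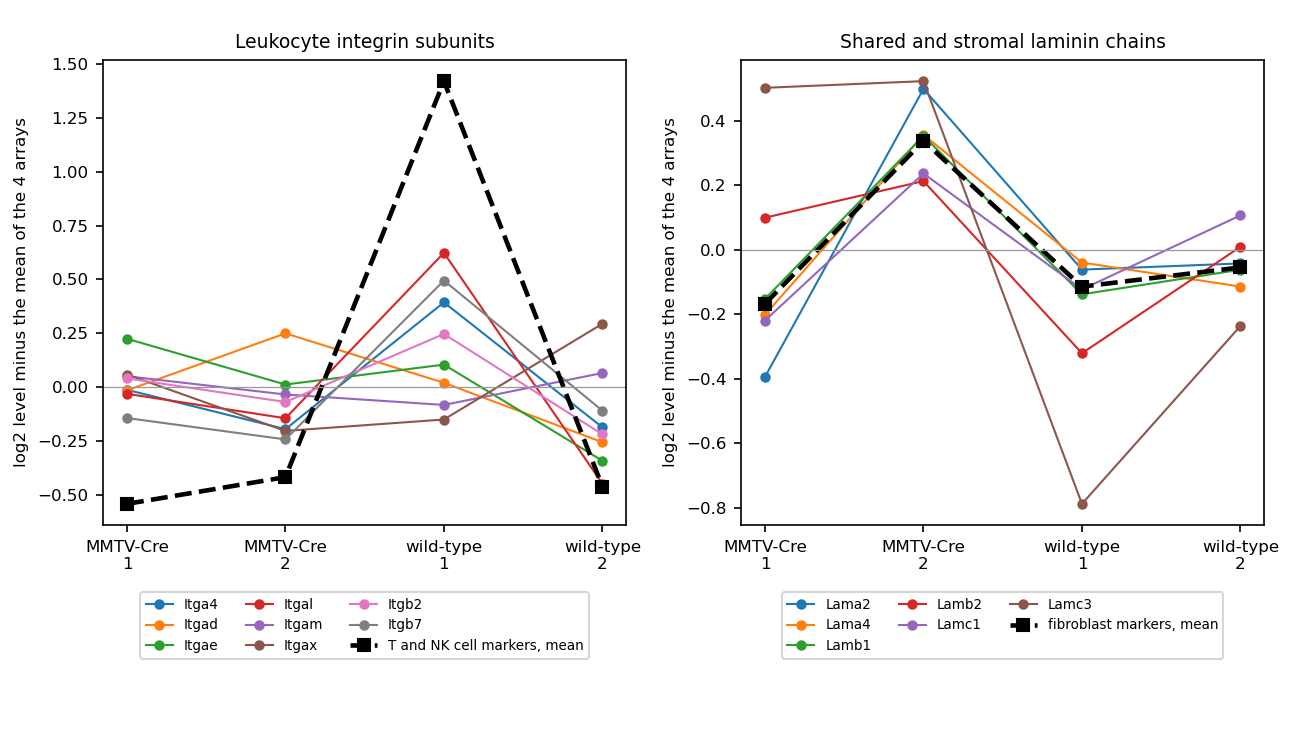
Level of each gene minus its mean over the 4 arrays (y axis, log2 units) in each array (x axis), for the leukocyte integrin subunits on the left and the shared and stromal laminin chains on the right, with the mean of the T and NK cell markers or of the fibroblast markers as a dashed black line. Lines only join the points of a gene. Itgal, Itgb7, Itga4 and Itgb2 peak with the T and NK cell markers in wild-type replicate 1, and all 6 laminin chains are highest in MMTV-Cre replicate 2.

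Lamb2 and Lamc3 differed from the other chains of this set in that both MMTV-Cre arrays were above both wild-type arrays. The same held for 16.6% of all genes. Lamb2, a beta chain known from the kidney filter and the nerve-muscle junction, had 5.58 and 5.69 in MMTV-Cre, against 5.16 and 5.49 in wild-type, a difference of 0.31 (-0.07 to 0.70). This was 0.15 without wild-type replicate 1 and 0.48 without wild-type replicate 2. Lamc3, a gamma chain of narrow distribution, had 3.05 and 3.07 in MMTV-Cre, against 1.76 and 2.31 in wild-type. The fitted difference was 1.03 (0.53 to 1.52). Both wild-type arrays lay below the median probe set, so its size, and its rank among the 35 genes, are uncertain. By limma, Lamc3 had an unadjusted p = 0.00257 and an adjusted p = 0.963, and it did not pass. Its difference ran from 0.75 without wild-type replicate 1 to 1.30 without wild-type replicate 2, and the adjusted p stayed at 0.182 or above in the fits without 1 array.

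Between MMTV-Cre and wild-type, no integrin or laminin gene passed. By limma at an adjusted p under 0.05, 0 of 35 were called, beside 0% of all 22180 genes, and the smallest adjusted p among all genes was 0.963, with 502 genes higher and 510 lower at an unadjusted p under 0.05. At an unadjusted p under 0.05, 2 of 35 (5.71%) were higher in MMTV-Cre, Lamc3 and Itga8, beside 2.26% of all genes, and 0 were lower, beside 2.3%. In both directions together, the 2 members stood beside 4.56% of all genes. The count of members was 5 without MMTV-Cre replicate 1 (4.57% of all genes), 2 without MMTV-Cre replicate 2 (5.58%), 1 without wild-type replicate 1 (3.35%) and 6 without wild-type replicate 2 (5.22%). Without wild-type replicate 2, 7 genes of the study passed at an adjusted p under 0.05, none of them an integrin or laminin gene. Groups did not overlap with MMTV-Cre higher in 7 genes (20%), beside 16.6% of all genes. These were Itgb1, Itgb4, Itgb5, Itga8, Lama5, Lamb2 and Lamc3. They did not overlap with MMTV-Cre lower in 4 genes (11.4%), Itga2, Itgb6, Itgb7 and Lama3, beside 16.3% of all genes. These shares are counts of few genes and lie on both sides of the background.

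The median difference was 0.04 over the 35 genes, 0.01 over the 25 integrin subunits and 0.08 over the 10 laminin chains, beside -0.00 over all genes. Of the laminin chains 9 had a difference above 0, beside 10996 of all 22180 genes, and Lama3 was the exception. The epithelial subunit median was 0.11 without MMTV-Cre replicate 1. The laminin median was 0.31 without MMTV-Cre replicate 1 and -0.07 without MMTV-Cre replicate 2. With 2 arrays per group the median interval, not adjusted for the number of genes, reached 0.42 to either side of a gene's estimate, and 0.30 for the epithelial subunits. Differences of that size would not be visible, and the adjusted threshold can miss larger ones. Lamc3, at 1.03, had an adjusted p = 0.963 by limma. An exact two-sided permutation test of 2 arrays against 2 cannot give a p under 0.333.

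**Figure D3:**
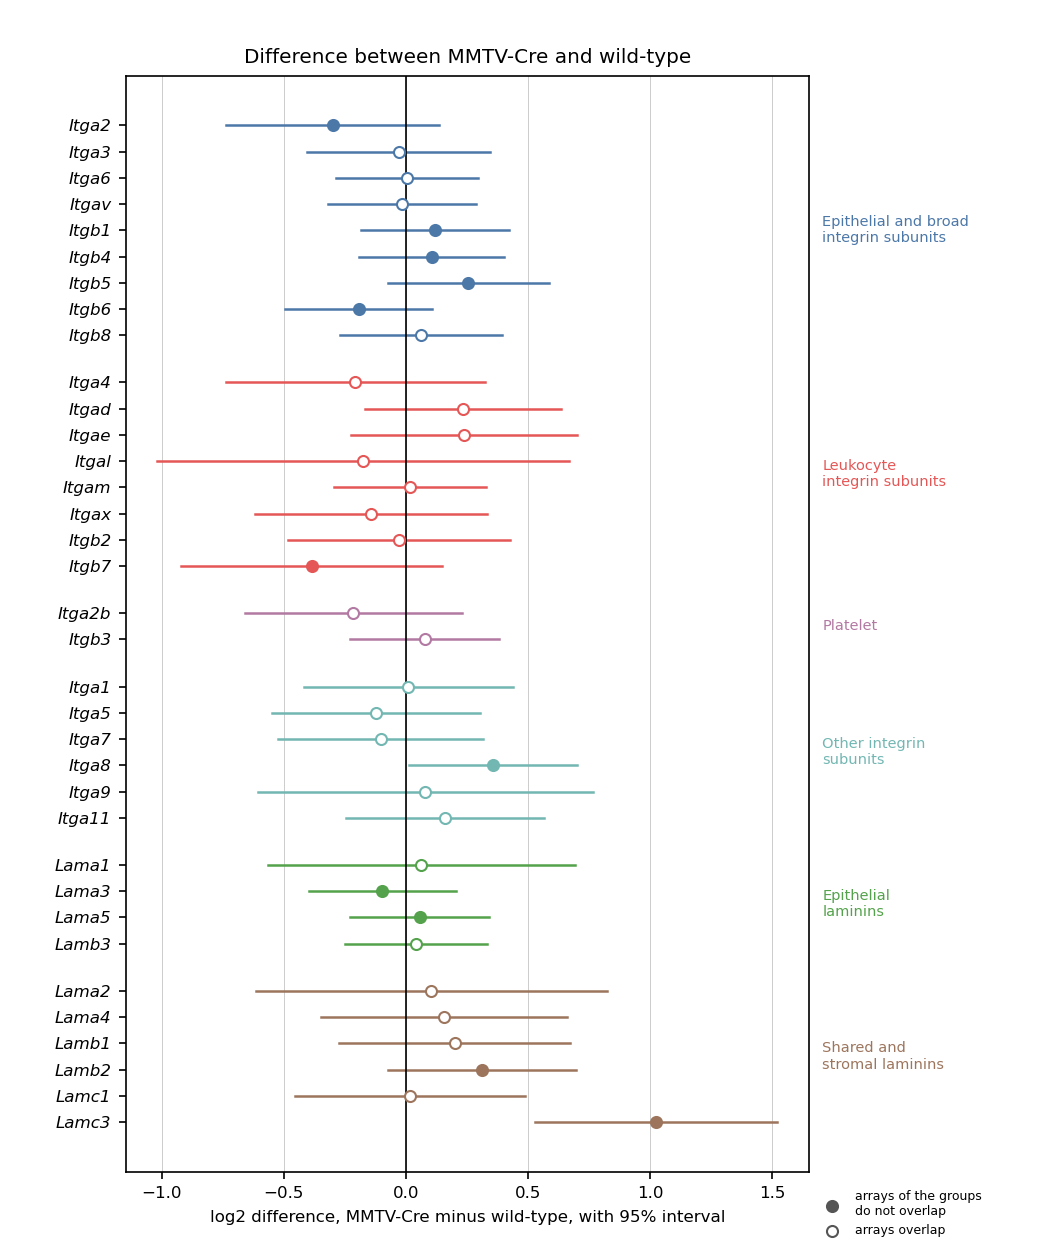
The log2 difference of each gene, MMTV-Cre minus wild-type (x axis), with its 95% interval from limma, coloured by gene set. Filled marks are genes whose MMTV-Cre arrays both lie on the same side of both wild-type arrays. Of the 35 intervals, only those of Lamc3 and Itga8 leave out 0.

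Genes that work with integrins and laminins did not pass either. Among 23 measured adaptors and kinases that link integrins to actin, 11 differences were above 0 and 12 below. The groups were separate in 4 upward and 4 downward, beside 16.6% and 16.3% of all genes. The listed genes Ptk2, Ilk, Lims2 and Nedd9 were not matched to a single-symbol probe set, so nothing is said of them here. The adaptor Lims1 differed by -0.19 and the kinase Src by 0.16. The actin-linked adaptors Tns1 and Zyx differed by 0.15 and -0.13. Among 9 hemidesmosome and laminin receptor partners, the tetraspanin Cd151 differed by 0.17 and the dystroglycan gene Dag1 by 0.18, while Bcam and the plectin gene Plec differed by -0.12 and 0.06. All intervals of both lists included 0, and 0 of these genes had an adjusted p under 0.05.

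Of 16 other basement membrane genes, 12 had a difference above 0, beside 10996 of all 22180 genes. Their median was 0.09, beside -0.00 over all genes. The groups were separate in 2 upward and 3 downward, beside 16.6% and 16.3% of all genes. Col4a1, a chain of the collagen network of basement membranes, had 5.22 and 5.49 in MMTV-Cre, against 4.86 and 5.09 in wild-type, a difference of 0.38 (-0.01 to 0.76). Col4a5 differed by 0.29 and Nid1, which links laminin to collagen, by 0.28, while Nid2 differed by -0.23. The list's mean level was 3.98 and 4.19 in MMTV-Cre, and 3.94 and 4.03 in wild-type, so MMTV-Cre replicate 2 was again the highest. Without that array, an alternative chosen after seeing the data, the median was -0.02, Nid1 differed by 0.04 and Col4a1 by 0.24. Among 17 integrin ligands outside the laminins, 10 differences were above 0 and 7 below, and the groups were separate in 3 upward and 4 downward. Fn1, which encodes fibronectin, read 7.72 and 8.53 in the MMTV-Cre arrays and 7.85 and 7.82 in the wild-type arrays, with MMTV-Cre replicate 2 above the rest, and differed by 0.29 with that array and by -0.11 without it. Emilin1, a ligand of Itga9 and Itga4 receptors, differed by 0.25, and Ccn1, a matrix protein bound by Itgav receptors, by 0.13. No gene of either list reached an unadjusted p under 0.05.

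The sequence around a transcript start of each gene was examined for what the epithelial and leukocyte subunits share beyond their levels. RefSeq windows of GRCm38.p6, from 250 bases before to 50 after a transcript start, were used for 22 of the 35 genes. Windows on chromosome 18, where Lama3 lies, were left out. For 11 of the 22 genes the transcript start was the outermost start of the gene in the RefSeq gene table. For 11 it lay inside the gene, by 15 to 104983 bases. The farthest inside were Itga9, Lamb3, with 7641 bases, Itgav, with 2094, and Itgb7, with 1470, so these windows are at an inner start. Of the 9 epithelial and broad subunits, 7 had a window, with a median of 20 CpG dinucleotides (range 12 to 27). Of the 8 leukocyte subunits, only 4 had a window, with a median of 5.5 (range 5 to 10). Itgb2, Itgal, Itgad and Itgae were without one, as were Itga6 and Itgb4 of the epithelial set. The 27025 windows of all genes had a median of 7. The ranges of the 2 sets did not overlap among the genes with a window, and no test was made. The GAGGAA motif, a core bound by the blood-cell factor PU.1, was searched on both strands. It occurred in 2 of 4 leukocyte windows, 2 of 7 epithelial windows, 12 of the 22 integrin and laminin windows (54.5%) and 28.3% of all windows. A match or its absence in such a window is a description only.

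**Figure D4:**
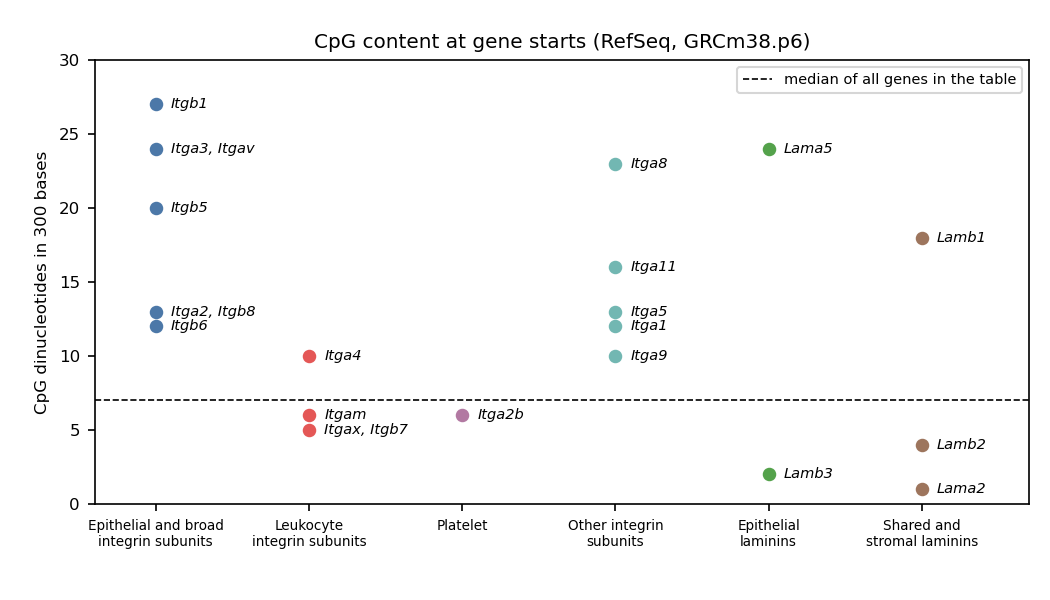
Number of CpG dinucleotides in the 300 base window at a transcript start of each gene (y axis), by gene set (x axis), with 1 point per gene (genes with the same count share a point) and a dashed line at the median of all genes, 7. The 7 epithelial and broad subunits with a window range from 12 to 27, and the 4 of 8 leukocyte subunits with a window from 5 to 10.

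The windows of 2 receptor pairs show this contrast, with each CpG in capitals and the strand of the gene read 5′ to 3′. Itgb1 and Itgav are from the high end of the epithelial and broad set, in which Itgb6 had 12 CpG and Itga2 and Itgb8 had 13 each. The 4 arrays of Itgb1 and Itgav spanned 0.213 and 0.113 on the log2 scale, while the dimmer Itgav probe set lay between 5.56 and 5.92. Itgb7 and Itga4 are the lymphocyte pair, whose arrays spanned 0.738 and 0.589 with wild-type replicate 1 highest. The means of this pair, 2.92 and 2.98, lay near the mark of dimness. A link between CpG count and span was not tested. The windows of Itgb1 and Itga4 are at the outermost start, and those of Itgav and Itgb7 at an inner start. They lie at chr8:128685404-128685703 (+ strand, 27 CpG), chr2:83724147-83724446 (+ strand, 24 CpG), chr15:102231886-102232185 (- strand, 5 CpG) and chr2:79255176-79255475 (+ strand, 10 CpG).
Itgb1: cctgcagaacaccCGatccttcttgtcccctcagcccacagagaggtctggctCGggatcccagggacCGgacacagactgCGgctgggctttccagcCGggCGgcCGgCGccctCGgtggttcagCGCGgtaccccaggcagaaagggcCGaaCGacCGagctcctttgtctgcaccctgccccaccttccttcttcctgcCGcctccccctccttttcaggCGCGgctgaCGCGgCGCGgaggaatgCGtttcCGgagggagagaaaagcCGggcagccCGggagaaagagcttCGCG
Itgav: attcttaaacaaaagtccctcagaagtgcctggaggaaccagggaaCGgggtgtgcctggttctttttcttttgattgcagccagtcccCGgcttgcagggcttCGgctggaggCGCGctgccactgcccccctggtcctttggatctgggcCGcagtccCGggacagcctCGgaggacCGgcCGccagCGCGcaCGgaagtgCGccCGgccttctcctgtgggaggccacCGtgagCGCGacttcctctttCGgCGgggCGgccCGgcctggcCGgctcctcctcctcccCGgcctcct
Itgb7: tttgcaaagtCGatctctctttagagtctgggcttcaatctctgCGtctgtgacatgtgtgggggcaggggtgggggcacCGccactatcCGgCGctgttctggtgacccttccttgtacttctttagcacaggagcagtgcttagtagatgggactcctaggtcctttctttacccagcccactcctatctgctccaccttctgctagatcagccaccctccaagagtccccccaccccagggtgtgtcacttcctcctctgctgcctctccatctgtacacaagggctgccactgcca
Itga4: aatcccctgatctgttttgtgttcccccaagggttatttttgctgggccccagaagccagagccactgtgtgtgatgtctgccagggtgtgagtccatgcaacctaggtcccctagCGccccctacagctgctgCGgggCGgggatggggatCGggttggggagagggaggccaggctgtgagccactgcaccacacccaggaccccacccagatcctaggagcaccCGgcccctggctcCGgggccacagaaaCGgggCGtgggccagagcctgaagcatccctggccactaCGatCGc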

How the data were processed

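Transcript levels were measured on Affymetrix arrays from 50 ng of total RNA per sample. The deposited log2 values per probe set were made by the authors with oligo and RMA, per the submitters' processing notes, and neither versions nor the probe set annotation are given in the sources used here. That the scale is log2 was read from the deposited values, which lie between 0.371 and 12.5. RMA equalises the arrays, so a shift shared by most genes cannot be seen. Of 41345 probe sets, 23521 carried 1 gene symbol in the platform annotation, 1814 several and 16010 none here.

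Each of 22180 genes was represented by its brightest single-symbol probe set. All were fitted in limma 3.58.1 (R 4.3.3) with lmFit and eBayes, without a filter, and two-sided p-values were adjusted over all genes by Benjamini-Hochberg. The procedure was tested on simulated data with planted differences larger than any of the members, so that test does not bear on differences of their size. Intervals are 95% intervals of that fit. All integrin and laminin genes may be named, and of other lists up to 4 genes with the smallest p, or any past the threshold. The mast cell genes Tpsb2, Kit and Fcer1a were named in addition, as were the unmatched adaptor and kinase genes. The members and lists were chosen with earlier results of these data known. Over all genes, same-numbered arrays did not deviate together (correlation across genes -0.0196), so the replicate number was used as a block only as an alternative. Endothelial markers did deviate by replicate number, at -0.19 and 0.19 around their mean in MMTV-Cre and -0.21 and 0.21 in wild-type. The p-values measure the spread between these samples. The number of arrays limits the precision. Alternatives changed the filter, the probe sets, the normalization, the variance model and the arrays included. RefSeq matched all 35 genes by Entrez identifier. A further family member is not reported here.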

Additional observations from a re-analysis of the deposited data

How the results depend on the processing

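With all 4 arrays, 0 genes of the study and 0 integrin or laminin genes passed in any alternative. The count of members at an unadjusted p under 0.05 was 2, also with the replicate number as a block (replicate block, 4.19% of all genes), and 1 when only genes at or above the median probe set were tested (4.32% of those), which left out the 7 dim members, Lamc3 among them. Of the single differences, Itgb2 turned to 0.0041 with repeated quantile normalization and Itgav to 0.0065 with median centring. Leaving out 1 array, where the lone array of its group takes its spread from the other group, gave 0 to 7 passing genes in the study, the 7 without wild-type replicate 2, and none was a member. The count of members at an unadjusted p under 0.05 then ran from 1 without wild-type replicate 1 (3.35% of all genes) to 6 without wild-type replicate 2 (5.22%). The count of separate groups has another meaning with 3 arrays and was not made. The median difference ran from -0.032 to 0.11 for epithelial subunits, -0.16 to 0.14 for leukocyte subunits and -0.068 to 0.31 for laminin chains. The direction held in these fits for 16 members and turned in at least 1 for 19. Their differences ran from -0.19 to 0.13 for Itga3, -0.032 to 0.043 for Itga6, -0.072 to 0.038 for Itgav, -0.042 to 0.17 for Itgb8, -0.50 to 0.083 for Itga4, -0.71 to 0.36 for Itgal and -0.057 to 0.091 for Itgam. They ran from -0.37 to 0.078 for Itgax, -0.26 to 0.20 for Itgb2, -0.44 to 0.0079 for Itga2b, -0.17 to 0.19 for Itga1, -0.29 to 0.046 for Itga5, -0.31 to 0.11 for Itga7 and -0.26 to 0.42 for Itga9. Among laminins they ran from -0.29 to 0.41 for Lama1, -0.34 to 0.55 for Lama2, -0.12 to 0.43 for Lama4, -0.052 to 0.45 for Lamb1 and -0.21 to 0.24 for Lamc1. With alternatives added after seeing the data, the basement membrane median ran from -0.024 to 0.13, Fn1 from -0.11 to 0.69, Nid1 from 0.043 to 0.52 and Col4a1 from 0.24 to 0.51 without 1 array. The cause of these turns was not tested.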
